A study of Mus musculus with 22 samples.

Results

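A set of 9 genes of the receptor-driven cell death machinery were followed in mouse kidney, out of 32858 genes in the deposited table. They were taken as the rows whose symbol is Fas, Tnfrsf10b, Casp8, Casp1, Ripk1, Ripk3, Mlkl, Gsdmd or Zbp1, and all 9 were found once. Kidneys of 22 male C57Bl6/J mice aged 8 to 10 weeks were profiled by RNA-Seq, with 1 library per mouse. The study asked whether KW6002 (istradefylline), an antagonist of an adenosine receptor, limits the kidney injury that the anticancer drug cisplatin causes. A group of 5 mice received vehicle and 6 received KW6002 at 3 mg/kg daily from day -5 to day 7. Another 5 received 6 daily cisplatin injections of 3 mg/kg (day 0 onward), and 6 received cisplatin together with KW6002. Mice given cisplatin were killed 72 hours after the last injection. The carrier given to the mice on cisplatin alone is not stated. No group carried a genetic alteration.

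Fas and Tnfrsf10b are cell surface receptors that assemble a signalling complex when their ligands bind. In that complex, caspase-8 can be activated and start apoptosis. Where caspase-8 is inactive, the kinases RIPK1 and RIPK3 can pass the signal to MLKL, which ruptures the plasma membrane in necroptosis, and ZBP1 can start the same step from left-handed nucleic acid inside the cell. Caspase-1 belongs to the inflammasome and cuts gasdermin D, whose fragments form pores in pyroptosis. These routes are known to operate in injured kidney tubules.

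In the mm10 build, Fas (ENSMUSG00000024778) lay on chromosome 19 from 34290666 to 34327772 and Tnfrsf10b (ENSMUSG00000022074) on chromosome 14 from 69767472 to 69784411. Casp8 (ENSMUSG00000026029) lay on chromosome 1 from 58795374 to 58847503, and Casp1 (ENSMUSG00000025888) on chromosome 9 from 5298517 to 5307265. Ripk1 (ENSMUSG00000021408) lay on chromosome 13 from 34002363 to 34037147, and its exons overlapped those of Serpinb6a on the opposite strand. The libraries were strand-specific, but whether counting used the strand is not stated, so reads in that overlap cannot be told apart for Ripk1. Ripk3 (ENSMUSG00000022221) lay on chromosome 14 from 55784995 to 55788865, Mlkl (ENSMUSG00000012519) on chromosome 8 from 111311797 to 111338177, Gsdmd (ENSMUSG00000022575) on chromosome 15 from 75862327 to 75867408, and Zbp1 (ENSMUSG00000027514) on chromosome 2 from 173206612 to 173218923. Ripk3, Mlkl and Zbp1 were on the minus strand and the other 6 genes on the plus strand.

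Promoters of 5 genes are printed to set those of Fas, Casp8, Ripk3 and Mlkl, which were higher with cisplatin and lower again when KW6002 was added, beside that of Ripk1, which was not. Each stretch runs 5′ to 3′ on the gene's own strand and holds 120 bases before the RefSeq start and 10 from it on, in GRCm38.p6. They lie at chr19:34290539-34290668 on the plus strand for Fas, chr1:58802382-58802511 on the plus strand for Casp8, chr14:55788848-55788977 on the minus strand for Ripk3, chr8:111338196-111338325 on the minus strand for Mlkl, and chr13:34002754-34002883 on the plus strand for Ripk1, which has 2 annotated starts, of which the one with motif matches is shown. The Casp8 stretch lies inside the gene as placed above, which begins at 58795374. Its letters are thus not those before the outermost annotated start of Casp8, which was not searched. The printed Ripk1 stretch also lies inside its gene as placed above, which begins at 34002363. The window of the other Ripk1 start, with its stretch at chr13:34002243-34002372, was searched and held no match. Capitals mark matches to TTCNNNGAA, a STAT site, or to the core of an interferon-stimulated response element (GAAA, any 2 bases, GAAA), searched on both strands.
Fas: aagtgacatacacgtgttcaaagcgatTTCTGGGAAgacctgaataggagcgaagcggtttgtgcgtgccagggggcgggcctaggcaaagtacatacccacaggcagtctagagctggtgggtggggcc
Casp8: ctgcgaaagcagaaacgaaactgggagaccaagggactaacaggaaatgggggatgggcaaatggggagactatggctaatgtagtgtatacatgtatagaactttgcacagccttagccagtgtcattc
Ripk3: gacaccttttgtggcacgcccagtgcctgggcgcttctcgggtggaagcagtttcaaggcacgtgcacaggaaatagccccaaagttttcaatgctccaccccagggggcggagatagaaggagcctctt
Mlkl: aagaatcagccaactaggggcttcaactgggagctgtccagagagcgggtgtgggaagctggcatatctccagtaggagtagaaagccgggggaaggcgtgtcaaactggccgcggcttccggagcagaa
Ripk1: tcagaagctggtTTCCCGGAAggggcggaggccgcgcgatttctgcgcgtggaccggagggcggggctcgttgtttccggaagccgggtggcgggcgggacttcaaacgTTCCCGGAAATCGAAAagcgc

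The RefSeq table matched 6 of the 9 genes, with 7 windows of 300 bases, and held no entry used here for Tnfrsf10b, Gsdmd and Zbp1. Counting the start as 0, Fas had a TTCNNNGAA match from -93 to -85. Ripk1 had TTCNNNGAA matches from -108 to -100 and from -11 to -3, and the latter overlapped its response element match from -5 to 4. Of 32851 promoter windows, 8.3% held TTCNNNGAA and 3.44% held the response element core. An NF-kB motif (GGGA, any base, TTTCC), present in 0.411% of windows, was in no window of these genes. The printed Ripk1 promoter was also the richest in CpG, with 32 such pairs in its 250 bases before the start. The other Ripk1 window had 19, against 11 for Fas, 8 for Ripk3, 5 each for Casp8 and Mlkl and a median of 6 over all windows. These matches describe letters and were not tested as binding sites.

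Library totals ran from 26471762 to 40510754 counts, with a median of 32721214.5. Mouse labels fell into numbers in the 300s and in the 500s, and what this division stands for is not stated. All cisplatin mice were in the 500s, as were 2 of 5 vehicle and 3 of 6 KW6002 mice. Vehicle replicates 1 and 2 and KW6002 replicate 1 stood apart, with 481 to 571 CPM (counts relative to the normalized library size) summed over 10 macrophage markers against 162 to 402 CPM in the other 19 libraries. They also had 689 to 1576 CPM over 8 fat markers, while the other vehicle and KW6002 kidneys had 101 to 407. The 10 proximal tubule markers were abundant in all vehicle kidneys, at a sum of 17897 to 18999 CPM. That sum was 2779 to 4365 CPM with cisplatin and 7682 to 11556 CPM with both drugs, and all 10 markers were lower with cisplatin than with vehicle. Their part in the values below was not tested. Over all libraries, neutrophil markers summed to 4.21 to 18.1 CPM, B cell markers to 1.30 to 6.26 CPM and endothelial markers to 686 to 919 CPM. The neutrophil gene Camp was at 0 in every KW6002 library. Of the 6 neutrophil markers tested, 0 were higher and 0 lower with KW6002 than with vehicle (0.0175% of all genes passed). In such bulk tissue, fewer cells of a type and less RNA per cell cannot be told apart, for these markers as for the genes below.

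With cisplatin, transcripts of both death receptors, of the initiator caspase and of the necroptosis genes Ripk3 and Mlkl rose, while Casp1, Gsdmd and Zbp1 did not pass the test. Of the 9 genes, 5 were higher than with vehicle at an adjusted p below 0.05 (Fas, Tnfrsf10b, Casp8, Ripk3 and Mlkl), a direction taken by 34.6% of 17131 genes tested, and 1 was lower (Ripk1), as were 35.9% of all genes. The same 5 genes also met the stricter thresholds of the study (at least a doubling or halving, with adjusted p below 0.01), which 12.1% of all genes met upward. In all 5 the cisplatin and vehicle kidneys did not overlap, which held upward for 27.4% of genes. The median log2 fold change of the 9 genes was 1.06, against -0.01 over all genes. Scaling by library size alone raised the median over all genes to 0.20, and the 9 genes then split into 6 higher and 0 lower. The shares of all genes called under that scaling are not given here. Leaving out the 3 libraries with the highest macrophage marker sums gave 7 genes past the threshold, with Gsdmd added. The share of all genes called without those libraries is not given here either.

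KW6002 given with cisplatin moved these genes unequally. Relative to cisplatin alone, 5 genes were lower (Fas, Tnfrsf10b, Casp8, Ripk3 and Mlkl; 27.2% of all genes were lower) and 1 was higher (Ripk1; 28.6% of all genes). Ripk3 and Mlkl met the thresholds of the study, as did 5.66% of all genes downward. The kidneys of both groups did not overlap in Fas, Casp8, Ripk3 and Mlkl, which were lower, nor in Ripk1, which was higher; this held for 18.5% of genes downward and 19.3% upward. The median of the 9 genes was -0.44 on the log2 scale, against 0.01 over all genes. Co-treated kidneys were nevertheless above vehicle for 6 of the 9 genes (29.8% of all genes), with a median log2 fold change of 0.33 against -0.00 over all genes. Fas and Tnfrsf10b met the stricter thresholds (5.83% of all genes upward), and Fas, Tnfrsf10b, Mlkl and Ripk1 did not overlap with vehicle (18.9% of all genes upward). These comparisons share their cisplatin or vehicle libraries.

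**Figure D1:**
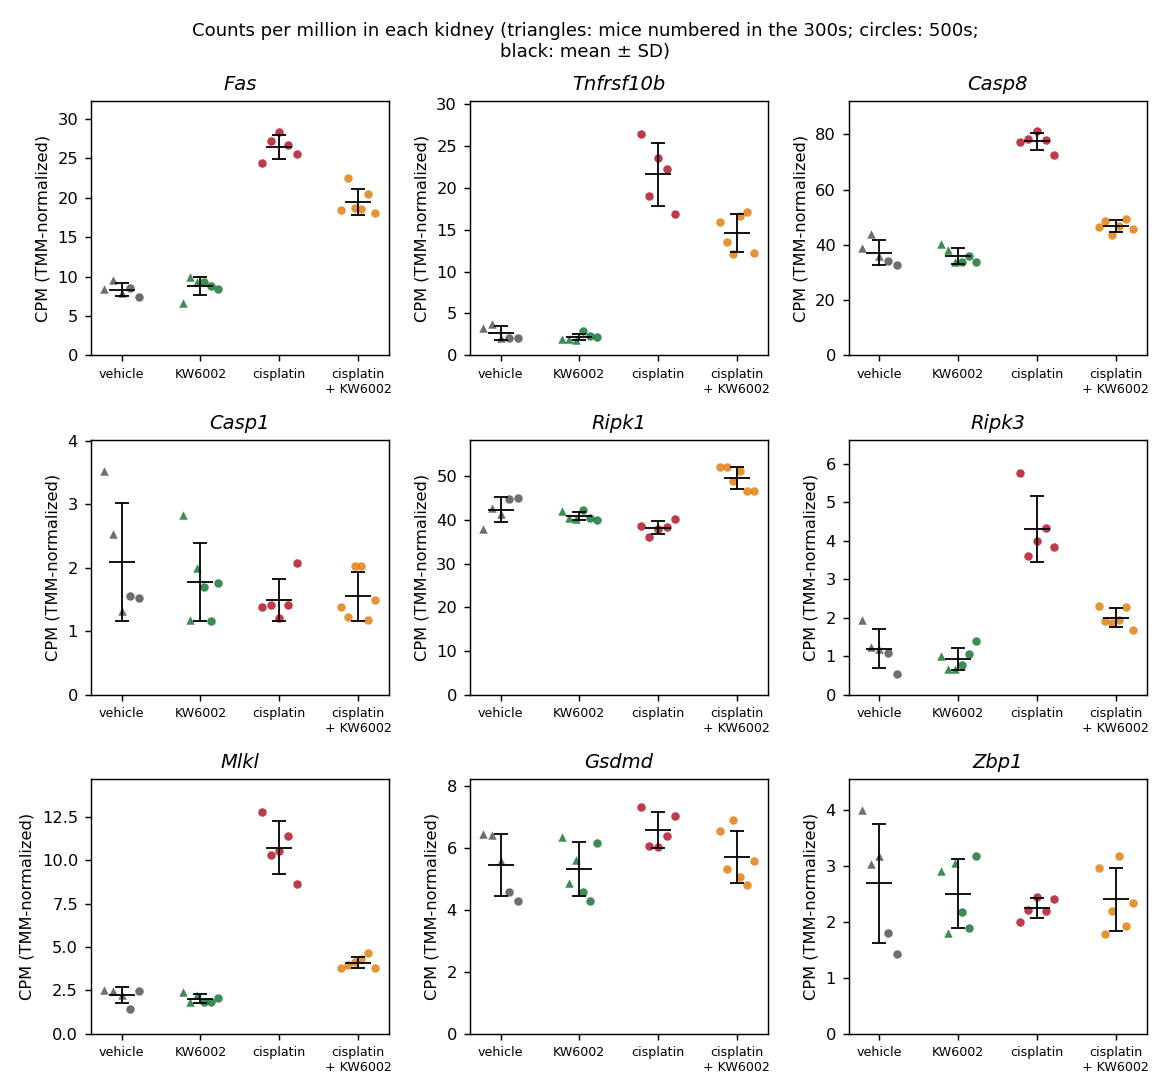
Normalized CPM of each gene (vertical axes, from 0) in every kidney of the 4 groups, with triangles for mice numbered in the 300s, circles for the 500s, and bars for the mean ± SD. Mlkl sits between 8.61 and 12.8 CPM with cisplatin and between 3.77 and 4.67 with both drugs, whereas Ripk1 is highest with both drugs.

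Given without cisplatin, KW6002 left all 9 genes short of the threshold. By edgeR's quasi-likelihood test, 0 of 9 passed at an adjusted p below 0.05, and 0 of 9 had an unadjusted p below 0.05, compared with 0.0175% and 11.3% of all genes. DESeq2 also gave 0. Their log2 fold changes ran from -0.39 for Ripk3 to 0.07 for Fas, and for all 9 the KW6002 and vehicle ranges overlapped, whereas 0.391% of all genes were wholly higher and 0.992% wholly lower. The 95% interval for Ripk3, the widest apart from Casp1, ran from -0.90 to 0.13, and its direction turned among the mice numbered in the 500s (0.41, adjusted p = 0.730).

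Fas, the receptor of Fas ligand, was counted at 8.45, 9.54, 7.86, 8.49 and 7.35 CPM in the 5 vehicle kidneys. The cisplatin kidneys had 24.4, 27.2, 28.3, 26.6 and 25.6 CPM. With KW6002 alone the lowest, median and highest values were 6.68, 9.05 and 9.98 CPM, and with both drugs they were 18.1, 18.6 and 22.5 CPM. Every cisplatin kidney was above every vehicle kidney, and every co-treated kidney lay between these groups without touching either. Fas rose 3.17-fold with cisplatin (log2 fold change 1.67 ± 0.09 SE; edgeR adjusted p = 2.05e-13) and fell by 0.44 ± 0.08 on the log2 scale when KW6002 was added (adjusted p = 9.16e-05). Co-treated kidneys remained 2.34-fold above vehicle (adjusted p = 8.60e-11).

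Tnfrsf10b encodes the only TRAIL receptor with a death domain in mice and had the steepest rise of the 9 genes. Its vehicle values were 3.27, 3.73, 2.12, 2.08 and 2.12 CPM, and its cisplatin values 26.4, 19.1, 23.6, 22.2 and 16.8 CPM. KW6002 alone gave 1.86, 2.11 and 2.91 CPM as lowest, median and highest, and both drugs gave 12.1, 14.7 and 17.2 CPM. The vehicle and cisplatin kidneys were far apart, whereas 1 co-treated kidney (17.2 CPM) exceeded the lowest cisplatin kidney (16.8 CPM). The rise with cisplatin was 8.16-fold (log2 3.03 ± 0.17 SE; edgeR adjusted p = 3.73e-13), and co-treatment lowered it by 0.57 ± 0.14 on the log2 scale (log2 fold change -0.57, adjusted p = 0.00172). That decrease lost its call once the summed fat markers entered the fit (-0.32, adjusted p = 0.159). The fat marker sum was 479 to 927 CPM with cisplatin and 70.6 to 453 CPM with both drugs, so this covariate moved with the treatment.

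Casp8, the caspase that death receptor complexes activate, had 39.0, 44.0, 36.1, 34.1 and 32.6 CPM with vehicle. It had 77.4, 78.2, 81.4, 78.2 and 72.6 CPM with cisplatin. The co-treated kidneys ran from 43.5 to 49.5 CPM with a median of 46.6, and those on KW6002 alone from 33.6 to 40.2 with a median of 35.0. Vehicle replicate 2, at 44.0 CPM, exceeded the lowest co-treated value, and all cisplatin kidneys stood above the rest. Casp8 rose 2.09-fold with cisplatin (log2 1.06 ± 0.07 SE; edgeR adjusted p = 2.81e-12). Adding KW6002 took it down by 0.73 on the log2 scale (-0.73 ± 0.06 SE; adjusted p = 2.59e-09), to 1.26-fold of vehicle (adjusted p = 1.24e-04). Relative to its level per kilobase of exon, Casp8 was the most abundant of the 9 transcripts in every group.

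Ripk1, the kinase that joins survival and death signalling at the receptor, took another course. Vehicle kidneys had 37.9, 42.7, 41.3, 44.7 and 45.0 CPM, and cisplatin kidneys 38.5, 36.0, 38.0, 38.4 and 40.2 CPM. With both drugs the lowest, median and highest values were 46.6, 50.1 and 52.1 CPM, and with KW6002 alone 39.9, 40.4 and 42.2 CPM. All 6 co-treated kidneys were above all other kidneys in the series, and the cisplatin and vehicle ranges overlapped. The co-treated mean exceeded that of cisplatin 1.30-fold (log2 0.38 ± 0.05 SE; edgeR adjusted p = 4.11e-07) and that of vehicle 1.17-fold (adjusted p = 1.89e-04). Against vehicle, the excess fell short of the threshold among mice numbered in the 500s alone (0.14 on the log2 scale, adjusted p = 0.0543). The small decrease with cisplatin (-0.15 ± 0.05 SE; adjusted p = 0.00915) turned to 0.07 (adjusted p = 0.223) when libraries were scaled by size alone.

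Ripk3, the kinase that phosphorylates MLKL, was scarce, with 16 to 60 reads per vehicle library. Its vehicle values were 1.94, 1.24, 1.18, 1.09 and 0.521 CPM, and its cisplatin values 5.75, 3.59, 4.0, 4.33 and 3.82 CPM. KW6002 alone gave 0.653, 0.883 and 1.38 CPM as lowest, median and highest, and both drugs gave 1.69, 1.93 and 2.30 CPM. The cisplatin kidneys were clear of all others, and the co-treated kidneys overlapped vehicle only through vehicle replicate 1. Ripk3 rose 3.59-fold with cisplatin (log2 1.84 ± 0.24 SE; edgeR adjusted p = 3.04e-07), and adding KW6002 brought it down by 1.11 (log2 fold change -1.11 ± 0.21 SE; adjusted p = 1.22e-04). It stayed 1.67-fold above vehicle (log2 0.74, adjusted p = 0.00917), or 1.32 on the log2 scale among the mice numbered in the 500s (adjusted p = 0.00106).

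Mlkl, whose product carries out necroptosis at the plasma membrane, had the largest decrease when KW6002 was added. Vehicle kidneys had 2.49, 2.49, 2.22, 1.44 and 2.44 CPM, and cisplatin kidneys 12.8, 10.3, 10.5, 11.4 and 8.61 CPM. The lowest, median and highest values were 1.81, 1.96 and 2.38 CPM with KW6002 alone and 3.77, 4.03 and 4.67 CPM with both drugs. The co-treated group was separate from cisplatin above it and from vehicle below it. Mlkl rose 4.82-fold with cisplatin (log2 2.27 ± 0.13 SE; edgeR adjusted p = 7.78e-13). With KW6002 added, it fell by 1.38 (log2 fold change -1.38 ± 0.12 SE; adjusted p = 2.31e-09) and remained 1.85-fold above vehicle (adjusted p = 4.13e-06).

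Casp1, the inflammasome caspase, was counted at 3.53, 2.53, 1.31, 1.55 and 1.53 CPM with vehicle. Cisplatin kidneys had 1.39, 1.41, 1.20, 1.42 and 2.07 CPM, and co-treated kidneys ran from 1.17 to 2.03 CPM with a median of 1.43. Kidneys on KW6002 alone ran from 1.16 to 2.83 CPM with a median of 1.73. All groups overlapped. The 3 highest values of the series belonged to vehicle replicates 1 and 2 and KW6002 replicate 1, the libraries with the highest macrophage marker sums. The highest cisplatin value belonged to the cisplatin kidney with the highest such sum (402 CPM). Among the co-treated kidneys, the highest value, 2.03 CPM in replicate 4, came with a sum of 198 CPM. Co-treated replicate 3, with the highest sum of that group (267 CPM), had 2.02 CPM. Cisplatin replicate 1 had 1.39 CPM at a sum of 328 CPM. KW6002 replicate 6, also at a sum of 328 CPM, had 1.76 CPM. No correlation between Casp1 and these sums was computed. Casp1 did not pass for cisplatin against vehicle (log2 fold change -0.48 ± 0.27 SE, 95% interval -1.05 to 0.08; edgeR adjusted p = 0.118). Without the 3 libraries with the highest macrophage marker sums, its log2 fold change was 0.03 (adjusted p = 0.927). With the fat marker sum in the fit it passed as lower (-0.53, adjusted p = 0.0428). Of the 10 macrophage markers, 2 were higher and 3 lower with cisplatin, and their part in the Casp1 values was not tested beyond these fits.

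Gsdmd, the pore-forming substrate of caspase-1, had 6.44, 6.42, 5.58, 4.58 and 4.30 CPM with vehicle and 7.33, 6.05, 6.05, 6.39 and 7.05 CPM with cisplatin. With both drugs the lowest, median and highest values were 4.81, 5.46 and 6.90 CPM, and with KW6002 alone 4.29, 5.25 and 6.37 CPM. All 4 groups overlapped. Its difference between cisplatin and vehicle missed the threshold (log2 fold change 0.27 ± 0.13 SE, 95% interval -0.01 to 0.55; edgeR adjusted p = 0.0785). The call depended on the libraries kept and on the fit. Without vehicle replicate 1 the difference was 0.33 (adjusted p = 0.0399), and without vehicle replicate 2 it was 0.33 (adjusted p = 0.0430). Without both and KW6002 replicate 1 it was 0.44 (adjusted p = 0.00868). It also passed with library size scaling alone (0.48, adjusted p = 0.00352), with the replicate number as a block (0.28, adjusted p = 0.0288), with the mouse number series as a covariate (0.46, adjusted p = 0.00605) and among the 500s alone (0.56, adjusted p = 0.00636). Adding KW6002 to cisplatin gave -0.20 ± 0.13 SE (adjusted p = 0.177).

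Zbp1, the nucleic acid sensor, had 4.02, 3.05, 3.19, 1.80 and 1.43 CPM with vehicle and 2.00, 2.21, 2.45, 2.19 and 2.41 CPM with cisplatin. The co-treated kidneys ran from 1.79 to 3.19 CPM with a median of 2.27, and the KW6002 kidneys from 1.80 to 3.18 CPM with a median of 2.55. All 4 groups overlapped, and the vehicle kidneys alone spanned the values of all others. Neither cisplatin against vehicle (log2 fold change -0.26 ± 0.23 SE, 95% interval -0.74 to 0.22; edgeR adjusted p = 0.326) nor the combination against cisplatin alone (0.10 ± 0.22 SE, 95% interval -0.36 to 0.56; adjusted p = 0.737) passed. With the fat marker sum in the fit, the latter passed as higher (0.63, adjusted p = 0.0289).

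**Figure D2:**
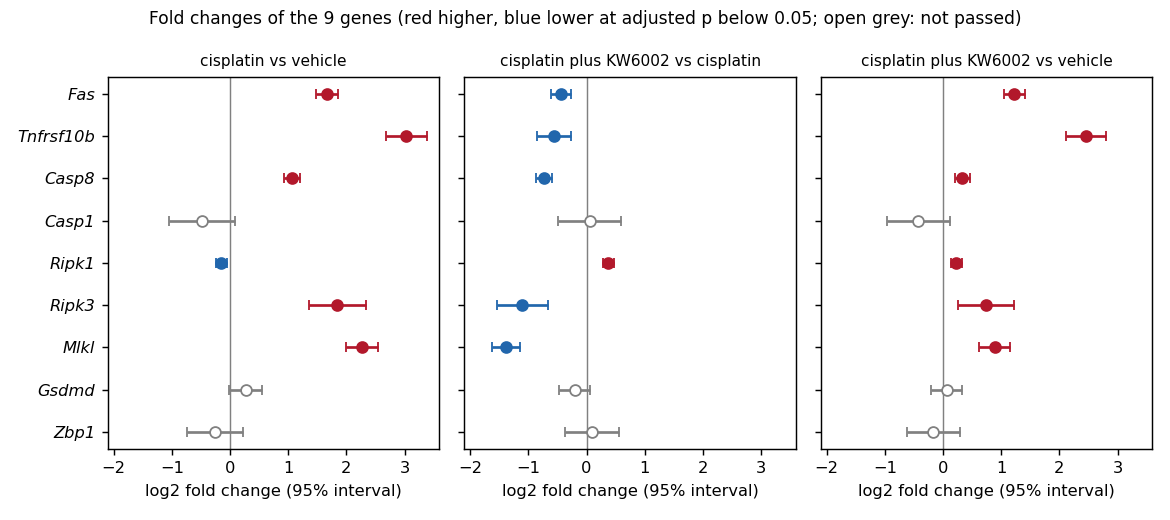
Log2 fold changes (horizontal axes) of the 9 genes in 3 comparisons, with 95% intervals, filled where the adjusted p was below 0.05 (red higher, blue lower) and open where it was not. Fas, Tnfrsf10b, Casp8, Ripk3 and Mlkl are red on the left and blue in the middle panel, and Ripk1 goes from -0.15 to 0.38.

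Whether KW6002 acted differently with and without cisplatin was tested as the difference between its log2 fold changes in those settings. It passed downward for Mlkl (-1.26 ± 0.18 SE; edgeR adjusted p = 8.66e-06), Casp8 (-0.68 ± 0.09 SE; adjusted p = 3.10e-06) and Fas (-0.51 ± 0.12 SE; adjusted p = 0.00172), and upward for Ripk1 (0.43 ± 0.07 SE; adjusted p = 1.74e-05). Of all genes, 19.9% passed downward and 22.8% upward. Mlkl alone of the 9 met the stricter thresholds, as did 4.33% of all genes downward. Ripk3 had a value of -0.72 ± 0.33 SE that did not pass (adjusted p = 0.0801). Without vehicle replicate 1 it was -0.97 (adjusted p = 0.0139), and among the mice numbered in the 500s it was -1.51 (adjusted p = 0.00475). The 500s hold only 2 vehicle and 3 KW6002 mice, and vehicle replicate 5 among them had 16 Ripk3 counts. Tnfrsf10b had -0.29 ± 0.23 SE (adjusted p = 0.319), and -0.80 among the 500s alone (adjusted p = 0.0314). Leaving out the 3 libraries with the highest macrophage marker sums gave 6 genes instead of 4, with Ripk3 at -1.05 (adjusted p = 0.0173) and Tnfrsf10b at -0.65 (adjusted p = 0.0266). The share of all genes called without those libraries is not given here, so this gain is not set against a background.

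Within vehicle, the mice numbered in the 300s and 500s did not overlap for Tnfrsf10b, Casp8, Ripk1, Ripk3, Gsdmd and Zbp1. The share of all genes that did not overlap in this way was not counted. With so few mice per series, ranges can separate without a difference, so this is no result about these genes. The 300s also include vehicle replicates 1 and 2 and KW6002 replicate 1, which stood apart in macrophage and fat markers. Zbp1 differed most in proportion, with a mean of 3.42 CPM over the 3 mice in the 300s and 1.61 CPM over the 2 in the 500s. Ripk3 had 1.45 and 0.806 CPM, and Ripk1 had the opposite order, with 40.6 and 44.9 CPM. Among KW6002 mice, Tnfrsf10b alone did not overlap between them, with the 300s lower (1.93 against 2.48 CPM), the reverse of vehicle (3.04 against 2.10 CPM). Among the mice in the 500s, the genes that rose with cisplatin had log2 fold changes of 1.73 for Fas, 3.36 for Tnfrsf10b, 1.21 for Casp8, 2.42 for Ripk3 and 2.45 for Mlkl, and the decrease in Ripk1 was -0.24 (adjusted p = 0.00227). Casp1 and Zbp1 did not pass there (-0.05, adjusted p = 0.880, and 0.48, adjusted p = 0.101).

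Levels were compared between genes per kilobase of exon. The length was that of all annotated exons of a gene joined, 1.497 kb for Casp1, 5.451 kb for Tnfrsf10b and 8.344 kb for Ripk1. It need not match the transcripts expressed, so the order of genes depends on this choice. In vehicle kidneys Casp8 led with a mean of 12.8 CPM per kilobase, followed by Ripk1 with 5.07, Fas with 4.04 and Gsdmd with 2.30. Casp1 followed with 1.40, Mlkl with 0.962, Zbp1 with 0.764, Ripk3 with 0.521 and Tnfrsf10b with 0.488. With cisplatin, Tnfrsf10b went from the lowest of these levels to 3.97 CPM per kilobase, Mlkl reached 4.65 and Casp1 had 0.999. Fas reached 12.8 and Casp8 26.8. Over the groups, the means of Tnfrsf10b, Casp8, Ripk3, Mlkl and Gsdmd were ordered KW6002, vehicle, both drugs and cisplatin. From lowest to highest, the means of Casp1 and Zbp1 were ordered cisplatin, both drugs, KW6002 and vehicle. For Casp1, Gsdmd and Zbp1, groups next to each other in the gene's own order overlapped, and KW6002 and vehicle overlapped for every gene.

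**Figure D3:**
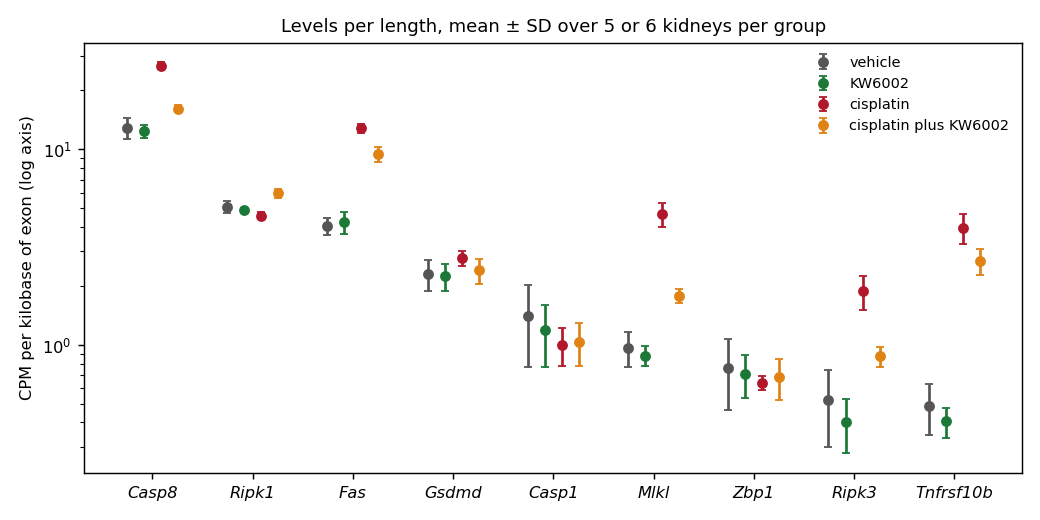
Mean level ± SD of each gene in CPM per kilobase of exon (vertical log axis) in the 4 groups, ordered by the vehicle mean. Tnfrsf10b, at 0.488 with vehicle, is at 3.97 with cisplatin, above Gsdmd and Casp1.

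Over all 22 libraries, log2 CPM of Fas and Tnfrsf10b had a Pearson correlation of 0.97, as did Casp8 and Mlkl, while Casp1 and Zbp1 had 0.64. These points share the 4 treatment groups, so the values describe common group patterns. The 3 genes most like each gene were Vps36, Gtse1 and Ces2e for Fas (0.98 to 0.99) and Sulf2, Gtse1 and Map3k20 for Tnfrsf10b (0.99 each). For Ripk3 they were Trp53, Nectin4 and Pqlc3 (0.95 each), for Mlkl Fam124a, Anxa3 and Cyp2s1 (0.99 each), and for Casp8 Klhl26, Trim6 and Itga7 (0.98 to 0.99). For Ripk1 they were Osbpl10, Ddx20 and Exosc2 (0.91 to 0.93). Casp1 was most like Wfdc17 (0.91), Fcna (0.86) and Cd300a (0.85), Gsdmd like Ctss (0.88), Adcy7 (0.86) and Ms4a6b (0.86), and Zbp1 like Gm26533 (0.75), Lyz1 (0.74) and Itgax (0.73).

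The other genes of these routes moved in both directions. Of 71 listed ligands, receptors, adaptors, caspases, inflammasome genes and necroptosis inputs, 67 could be tested, and 40 were higher and 9 lower with cisplatin than with vehicle, where 34.6% and 35.9% of all genes were. When KW6002 was added, 35 were lower and 4 higher than with cisplatin alone (27.2% and 28.6% of all genes), and 31 were higher and 10 lower than with vehicle (29.8% and 29.9% of all genes). For KW6002 without cisplatin, 0 of the 67 passed by edgeR, and 2 had an unadjusted p below 0.05 (0.0175% and 11.3% of all genes). Their median log2 fold changes were 0.38 for cisplatin against vehicle and -0.22 for the combination against cisplatin. Scaled by library size alone, the counts were 49 higher and 5 lower, then 3 higher and 40 lower. That scaling also moved the median over all genes, to 0.20 for cisplatin against vehicle and to -0.05 for the combination against cisplatin. The shares of all genes called under it are not given here, so these counts are not set against a background. The difference between KW6002 effects passed in 4 upward and 23 downward (22.8% and 19.9% of all genes), or in 1 and 26 with library size alone.

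Among the ligands, 1 of 4 tested was higher and 2 were lower with cisplatin, too few genes to set apart from the 34.6% and 35.9% of all genes. Tnfsf10, which encodes TRAIL, the ligand of Tnfrsf10b, fell from 81.8 ± 9.71 to 43.3 ± 2.38 CPM (SD, n = 5 each; log2 fold change -0.92; edgeR adjusted p = 4.95e-08) and was at 37.2 ± 6.69 CPM with both drugs (n = 6). Its receptor rose in the same kidneys. Tnfsf12, which encodes TWEAK, rose (log2 0.38, adjusted p = 0.00556), and Ltb, a lymphotoxin subunit at 0.603 CPM in vehicle, fell by 1.31 (log2 -1.31, adjusted p = 0.00221). The T cell marker sum was 6.10 to 9.81 CPM with vehicle and 3.93 to 4.62 CPM with cisplatin, and its part in the Ltb value was not tested. Fasl, which encodes the Fas ligand, was too scarce to test, with 0 to 8 counts in any library.

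Of the other receptors, 7 of 9 were higher and 1 lower with cisplatin (34.6% and 35.9% of all genes), and 6 were lower and 1 higher when KW6002 was added (27.2% and 28.6% of all genes). Tnfrsf1a, the main TNF receptor, rose from 59.0 ± 5.60 to 162 ± 6.40 CPM (log2 1.46; edgeR adjusted p = 3.10e-14) and fell by 0.17 with co-treatment (log2 -0.17, adjusted p = 0.0325). Ltbr, the lymphotoxin beta receptor, rose with cisplatin (log2 0.66, adjusted p = 1.06e-09) and rose again when KW6002 was added (0.30, adjusted p = 1.14e-04), the same direction as Ripk1. Tnfrsf21, the most abundant receptor at 407 CPM in vehicle, did not pass in either (0.28, adjusted p = 0.0738, and -0.12, adjusted p = 0.459), though with library size alone it was higher with cisplatin (0.50, adjusted p = 0.00163).

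The adaptors and inhibitors of the receptor complex were higher with cisplatin in 11 of 15 cases and lower in 0 (34.6% and 35.9% of all genes), and co-treatment left 7 lower and 1 higher than cisplatin (27.2% and 28.6% of all genes). Cflar, which encodes the caspase-8 inhibitor c-FLIP, rose together with Casp8 (log2 0.53; edgeR adjusted p = 1.03e-06) and fell by 0.56 with co-treatment (log2 -0.56, adjusted p = 6.86e-07). Its co-treated mean of 173 CPM and its vehicle mean of 175 CPM did not differ past the threshold (log2 -0.02 ± 0.07 SE, adjusted p = 0.807). Xiap, an inhibitor of executioner caspases, rose by 0.43 (adjusted p = 1.53e-06) and then changed by -0.34 (adjusted p = 4.13e-05). Cyld, a deubiquitinase of the complex, rose by 0.34 with cisplatin (adjusted p = 1.59e-05) and had -0.08 with co-treatment (adjusted p = 0.256).

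Of the other caspases and apoptosome genes, 8 of 14 were higher and 4 lower with cisplatin (34.6% and 35.9% of all genes), and 8 were lower and 2 higher when KW6002 was added (27.2% and 28.6% of all genes). Bid, the caspase-8 substrate that links the receptors to mitochondria, went the other way, falling by 0.40 under cisplatin (log2 -0.40, adjusted p = 0.00574) and regaining 0.50 under co-treatment (adjusted p = 0.00103). Its decrease did not pass with library size alone (-0.19, adjusted p = 0.179). Casp9, the apoptosome caspase, had 0.08 with cisplatin (adjusted p = 0.266; 0.29, adjusted p = 3.85e-04, with library size alone) and was lower with co-treatment (-0.17, adjusted p = 0.0131).

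Of 13 inflammasome and pyroptosis genes, 4 were higher and 1 lower with cisplatin, the former near the 34.6% of all genes that were higher (35.9% were lower). When KW6002 was added, 6 were lower and 0 higher (27.2% and 28.6% of all genes). Pycard, the adaptor that recruits caspase-1, rose (log2 0.60; edgeR adjusted p = 2.46e-04) and then fell by 0.74 (log2 -0.74, adjusted p = 2.41e-05), unlike Casp1. Gsdme, another pore-forming gasdermin, rose by 0.58 (adjusted p = 1.23e-05) and changed by -0.24 with co-treatment (adjusted p = 0.0257). Ninj1, which completes membrane rupture, rose by 0.35 (adjusted p = 2.38e-04) and had 0.04 with co-treatment (adjusted p = 0.699).

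Necroptosis inputs and membrane repair genes were higher in 9 of 12 cases and lower in 1 with cisplatin (34.6% and 35.9% of all genes), and 8 were lower and 0 higher when KW6002 was added (27.2% and 28.6% of all genes). The 3 most abundant belong to the repair machinery that sheds damaged membrane, and all 3 followed the direction of Mlkl. Chmp4b rose by 0.64 and then changed by -0.32 (edgeR adjusted p = 1.64e-09 and 3.58e-05). Sdcbp rose by 0.53 and then changed by -0.35 (adjusted p = 1.96e-09 and 1.80e-06). Pdcd6ip rose by 0.42 and then changed by -0.17 (adjusted p = 3.60e-07 and 0.00804).

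**Figure D4:**
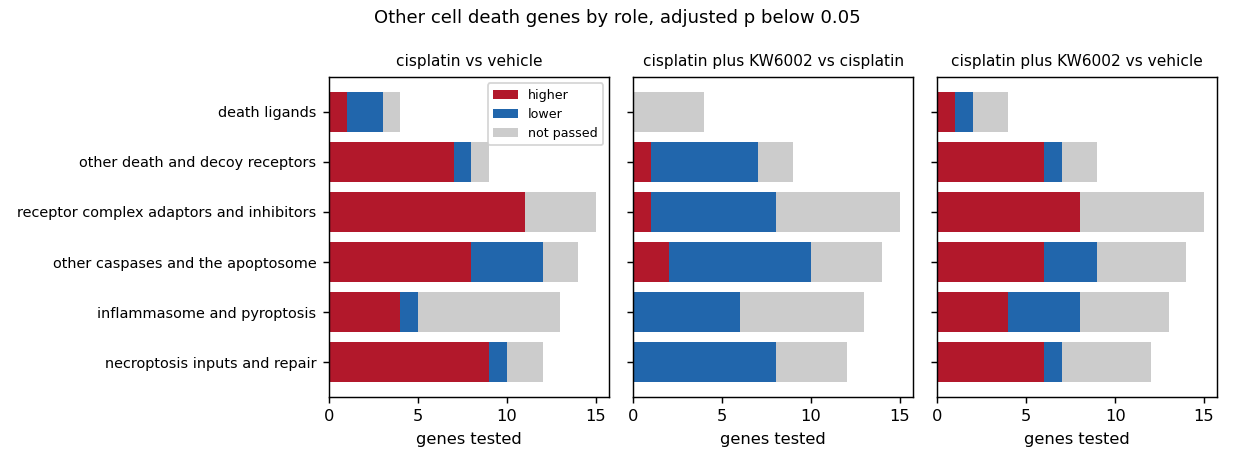
Numbers of other cell death genes tested in each role (horizontal axes) that were higher (red), lower (blue) or not past an adjusted p of 0.05 (grey) in 3 comparisons. Red bars fill 11 of 15 adaptors and 9 of 12 necroptosis inputs with cisplatin, and no ligand passed when KW6002 was added.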

How the data were processed

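Poly-A RNA from 22 kidneys gave 1 library per mouse with the TruSeq Stranded mRNA kit. The authors mapped reads to mm10 with STAR and counted them per gene with HTSeq 0.6.1p1; the deposited unit is the raw count, not normalized. Another 66 unnamed, empty columns were not used. Symbols, positions and exon lengths came from GENCODE M21. filterByExpr kept 17131 genes (CPM of 0.306 in at least 5 libraries) with 99.9% of the counts, all 9 genes included. Counts were tested with edgeR 4.0.16 in R 4.3.3: TMM factors, 1 mean per group over all 22 libraries, quasi-likelihood F tests, with p-values adjusted by Benjamini-Hochberg over all genes tested. CPM values use TMM factors, SEs come from the fit, and overlap means that the ranges of CPM touch. Depth allowed counts from 16 to 3114 per library for the 9 genes, and a count of 0 allows up to 3. DESeq2 1.42.0, the authors' tool, was an alternative, as were other scalings, filters, covariates, and leaving out each library.

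The 9 genes and all gene lists were chosen with earlier results of these data known. Besides the 9 genes, the text names the 3 genes of each role with the highest mean CPM and the 3 genes with the highest Pearson correlation to each. A gene that this rule includes is not reported here. Replicate numbers did not pair the mice, by the correlation check given below. Promoters came from RefSeq (GRCm38.p6). The script was tested on simulated data. The fat marker covariate and the exclusion of 3 libraries were chosen after seeing the data.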

Additional observations from a re-analysis of the deposited data

Results flagged for a closer look

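Each of the 9 genes was checked in each of the 4 groups for a kidney far from the others, 36 groups in all, of which chance flags about 1 in 20. Casp1 in cisplatin replicate 5, at 2.07 CPM against a next value of 1.42, and Mlkl in vehicle replicate 4, at 1.44 CPM against a next value of 2.22, stood apart.

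The log2 fold change of KW6002 differed between mice with and without cisplatin, by a test of the difference itself, for Fas (-0.51), Casp8 (-0.68), Ripk1 (0.43) and Mlkl (-1.26), each with edgeR's adjusted p below 0.05 as given above.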

How the results depend on the processing

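Under the stricter thresholds of the study, the count of genes was 2 for the combination against cisplatin, 2 for the combination against vehicle, and 1 for the difference between KW6002 effects, against 6, 6 and 4 at an adjusted p below 0.05. Scaled by library size alone, Ripk1 under cisplatin turned to 0.0705 on the log2 scale; that scaling moved the median of all genes by about the size of this change (to 0.20). Leaving out 1 mouse at a time gave 6 to 7 genes for cisplatin against vehicle, 6 for the combination against cisplatin, 6 against vehicle, 0 for KW6002 against vehicle, and 4 to 5 for the difference. In that order, DESeq2 gave 6, 6, 6, 0 and 4. With the replicate number as a block the count was 7 for cisplatin against vehicle, 6 for both comparisons of the combination, 0 for KW6002 and 4 for the difference, and Gsdmd was the gene added. Deviations of same-numbered mice had a median correlation of 0.00846 over 31 pairs of mice (range -0.175 to 0.405), so these numbers were not read as pairs. Among the mice in the 500s the counts were 7, 6, 5, 0 and 6, and with the fat marker sum they were 7, 6, 6, 0 and 4. The shares of all genes called in these alternative fits are not given here. Counts that change between the fits are thus not set against a background. The fit of only the groups compared was not run for the difference. Depth limits Ripk3 (16 counts in one vehicle library) and Casp1 (33 counts in one KW6002 library) most.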

Other observations

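Gsdma and Casp14, chosen here after their values were seen, are 2 of the 67 other cell death genes tested that were barely counted without cisplatin. Gsdma, a gasdermin of skin and gut epithelium, had 0 counts in all 11 kidneys without cisplatin, 26 to 73 counts in each of the 5 with cisplatin, and 4 to 25 in each of the 6 with both drugs. Casp14, a caspase known from the epidermis, had at most 1 count in any kidney without cisplatin, 81 to 194 counts with cisplatin and 3 to 24 with both drugs. A count of 0 allows up to 3 counts per library.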
